A study of Homo sapiens with 6 samples.

Results

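The genes examined were WNT5A and 9 further genes of WNT signalling, chosen by name as ligands, receptors, the transducer and target genes of the pathway. They were WNT5A, WNT5B, ROR1, ROR2, FZD2, FZD7, CTNNB1, LEF1, AXIN2 and DKK1, 10 of the 58302 gene IDs counted, and each matched 1 Ensembl ID through its GENCODE symbol. The samples were 6 bulk RNA sequencing libraries of A375, a human melanoma cell line, in a comparison made to find the transcriptional effects of HMGB2, a protein that binds and bends DNA. Of these, 3 came from cells that stably carried an empty vector and 3 from cells that stably overexpressed HMGB2. The overexpression line was made by lentiviral transduction of an open reading frame and drug selection, so endogenous and vector HMGB2 reads are counted together. The labels give no other treatment for either group. The study's reporting form calls the 3 replicates technical, each a pellet of cells, so the spread given here is that between pellets of 1 line and does not cover separate transductions. The tests speak of these lines.

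WNT proteins are secreted ligands that bind Frizzled receptors (FZD) at the cell surface. In the canonical branch, with LRP5 or LRP6 as co-receptor, the signal stops a complex built on AXIN, APC and the kinases CK1 and GSK3 from marking beta-catenin for destruction, and beta-catenin then enters the nucleus and acts with the TCF and LEF transcription factors. WNT5A is the best known ligand of the branch that does not use beta-catenin, acts through Frizzled and the receptors ROR1 and ROR2 on the cytoskeleton and calcium, and is known in melanoma for its link with motility and invasion.

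Promoter sequence is shown for 3 genes to which the results below return: CTNNB1, NKD2 and DKK1. CTNNB1 is the member whose transcript passed the test, and NKD2 the pathway gene with the largest called change. DKK1 is the member, among those searched, whose promoter held a word of the kind TCF and LEF factors bind. The sequences are RefSeq's on GRCh38.p14, in which 12 of 16 genes looked up had an entry (the 10 members and the 6 pathway genes called below). FZD2, FZD7, AXIN2 and CCND1 had no entry and were not searched. Each run is given 5′ to 3′ and ends before the RefSeq start of the gene, or, for CTNNB1, before the first annotated exon in the window, and capitals mark a match to the word searched. CTNNB1 is taken from chr3:41199255-41199388, DKK1 from chr10:52314031-52314280 and NKD2 from chr5:1008552-1008801, all on the plus strand.
CTNNB1: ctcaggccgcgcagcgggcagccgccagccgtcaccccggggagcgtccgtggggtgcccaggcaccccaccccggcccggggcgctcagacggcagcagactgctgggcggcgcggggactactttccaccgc
DKK1: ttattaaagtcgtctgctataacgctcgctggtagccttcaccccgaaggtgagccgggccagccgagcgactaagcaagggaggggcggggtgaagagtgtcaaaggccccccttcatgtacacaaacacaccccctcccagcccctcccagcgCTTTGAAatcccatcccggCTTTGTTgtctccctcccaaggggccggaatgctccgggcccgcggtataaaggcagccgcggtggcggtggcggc
NKD2: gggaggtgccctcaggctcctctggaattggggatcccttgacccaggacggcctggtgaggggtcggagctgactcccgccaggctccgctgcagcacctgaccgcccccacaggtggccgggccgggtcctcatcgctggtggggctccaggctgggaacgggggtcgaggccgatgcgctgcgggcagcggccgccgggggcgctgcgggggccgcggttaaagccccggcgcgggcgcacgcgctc
The word searched was CTTTGNN, in which each N is A or T, on both strands and in the 250 bases before the start. DKK1 held 2 matches, the first beginning 95 bases and the second 76 bases before the start, and they did not overlap. None of the other members with an entry (WNT5A, WNT5B, ROR1, ROR2, CTNNB1 and LEF1) held one in this window. Nor did FZD1, FZD9, CSNK1A1, NKD2 or PRICKLE1. The windows of WNT5A, WNT5B, CTNNB1, LEF1 and PRICKLE1 lay inside the annotated span of the gene, so other starts of these genes were not searched. Among all 35116 promoters in the table, 4199 (12%) held at least 1. The printed stretch of DKK1 is also exonic for PRKG1-AS1, a non-coding gene on the opposite strand.

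HMGB2 (ENSG00000164104, chromosome 4) was read first as a test of the labels. Its normalized counts, that is reads divided by a library's size factor, were 7250.1, 7729 and 7562 in empty vector replicates 1 to 3 and 15095, 16848 and 14609 with overexpression, and the groups did not overlap. Libraries held between 45925053 and 56755212 reads in genes. Empty vector replicate 3 stood apart from the other empty vector libraries in several of the genes below, and log2 fold changes of the members that moved with it are given with and without it. All 10 members had reads in all 6 libraries, a normalized count averaging at least 10 and an adjusted p, so the filter on low counts removed none.

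Of the 10 members, CTNNB1 was called higher with HMGB2 overexpression and none was called lower, at a Benjamini-Hochberg adjusted p under 0.05 over all genes in DESeq2. This is 10% of the members, where 4.94% of the 18836 genes tested were called in either direction, 2.29% higher and 2.64% lower. Groups did not overlap for 4 members (40%), WNT5B, ROR2, FZD2 and CTNNB1, all of them higher with overexpression. The same held for 22.8% of the 16692 genes whose normalized counts averaged at least 10. As a log2 fold change, overexpression over empty vector, the median was 0.15 for the members and 0.0027 for all genes tested. With edgeR's quasi-likelihood test 0 members were called. At an unadjusted p under 0.05, 2 members were higher and 0 lower under either tool. Of all genes tested, 6.98% were higher and 7.31% lower at an unadjusted DESeq2 p under 0.05.

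**Figure D1:**
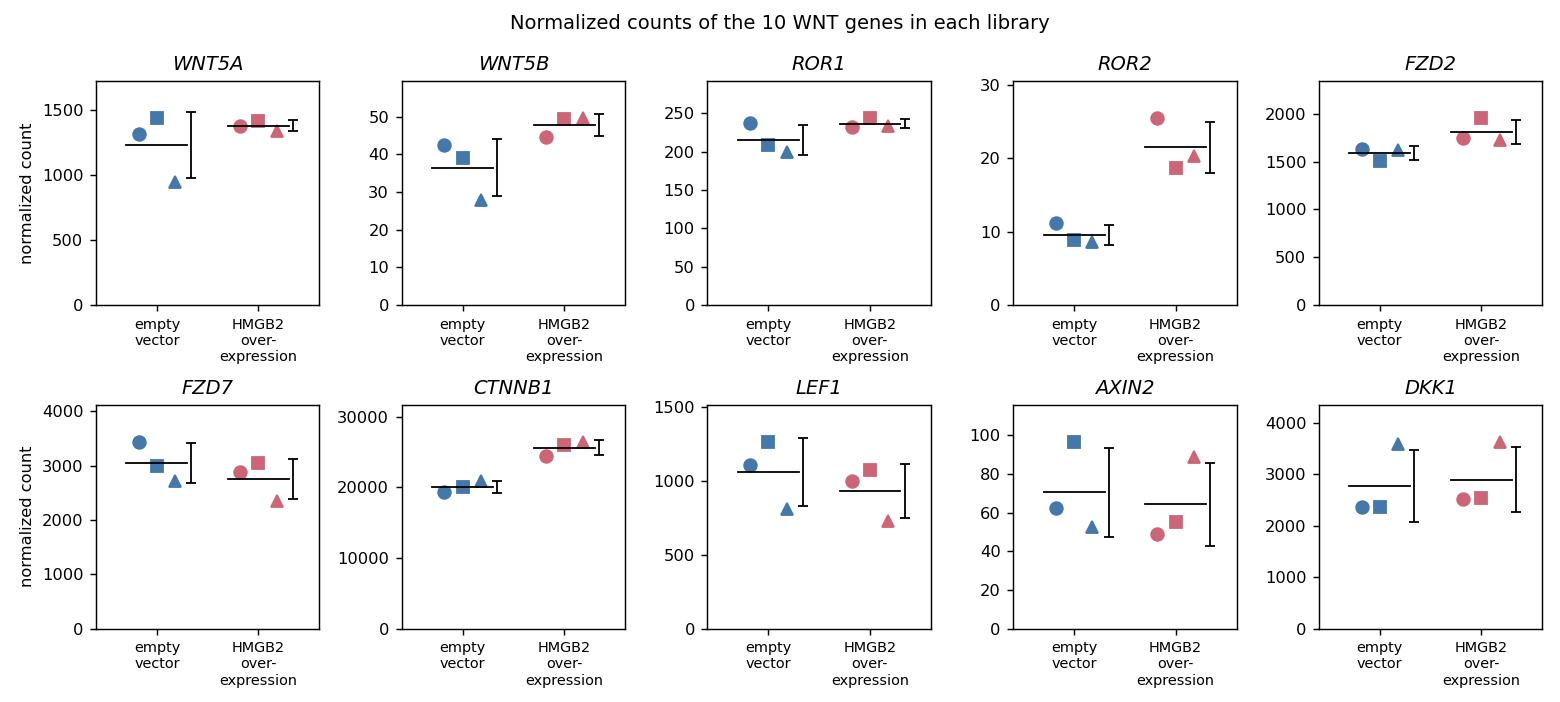
Normalized counts of the 10 WNT genes (vertical axes, each from 0) in each library, empty vector on the left and HMGB2 overexpression on the right of each panel; circles, squares and triangles are replicates 1, 2 and 3, horizontal lines are means and bars are SD of 3 libraries. CTNNB1 lay between 19272 and 20889 with the empty vector and between 24435 and 26404 with overexpression, while WNT5A, LEF1 and DKK1 differed more between replicates than between groups.

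The ligands come first. WNT5A (ENSG00000114251), on the minus strand of chromosome 3 from 55465715 to 55490539 (hg38), had normalized counts of 1313, 1435 and 945 with the empty vector and 1379.8, 1418 and 1338 with overexpression. The groups overlapped, since empty vector replicate 2 held the highest value of all, while empty vector replicates 1 and 3 fell below the overexpression libraries. Means were 1231 ± 255 and 1379 ± 40.1 (SD, n = 3 each), and the log2 fold change was 0.16 (SE 0.16, 95% interval -0.16 to 0.48, DESeq2 adjusted p = 0.762). The interval includes 0 and reaches a rise of 0.48 on the log2 scale. Without empty vector replicate 3 the log2 fold change of WNT5A was 0.01 (DESeq2 adjusted p = 0.982), and without empty vector replicate 2 it was 0.29 (DESeq2 adjusted p = 0.645).

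WNT5B (ENSG00000111186), its closest relative among the ligands, lies on chromosome 12 from 1529891 to 1647212 and was far lower. Its normalized counts were 42.4, 39.0 and 27.9 with the empty vector and 44.5, 49.2 and 49.5 with overexpression. The overexpression libraries all lay above those with the empty vector, though 44.5 and 42.4, the nearest values of the groups, were close. The log2 fold change was 0.39 (SE 0.33, 95% interval -0.26 to 1.03), and it did not pass the test (DESeq2 adjusted p = 0.700). Without empty vector replicate 3 it was 0.23 (DESeq2 adjusted p = 0.750). Per exon length, WNT5A was between 16.0 and 21.8 times WNT5B in each library.

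ROR1 and ROR2 encode the single-pass receptors with a tyrosine kinase-like domain to which WNT5A binds. ROR1 (ENSG00000185483, chromosome 1, 63774017 to 64181498) had normalized counts of 237, 208 and 199.6 with the empty vector and 233, 243 and 233 with overexpression. The groups overlapped through empty vector replicate 1, and the log2 fold change was 0.14 (SE 0.16, 95% interval -0.18 to 0.45, DESeq2 adjusted p = 0.817). It was 0.09 without empty vector replicate 3 and 0.21 without empty vector replicate 1, not called in either fit.

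ROR2 (ENSG00000169071, chromosome 9, 91563091 to 91950228, minus strand) was the lowest member and had the largest log2 fold change of the 10. Its normalized counts were 11.1, 8.86 and 8.59 with the empty vector and 25.4, 18.7 and 20.3 with overexpression, so the lowest overexpression library was above the highest empty vector library. The reads behind them were few, 11, 10 and 8 against 28, 19 and 18. Means of 9.52 ± 1.39 and 21.5 ± 3.52 (SD, n = 3 each) gave a log2 fold change of 1.18 (SE 0.52, 95% interval 0.15 to 2.2), a 2.26-fold difference that was not called (unadjusted p = 0.0247, DESeq2 adjusted p = 0.235). Leaving out any 1 library left a value between 1.03 and 1.3, also not called, and the call was not reached under any alternative that gave ROR2 an adjusted p. Per exon length, ROR1 was 18.7, 20.6 and 20.3 times ROR2 with the empty vector and 8.0, 11.4 and 10.1 times with overexpression.

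FZD2 and FZD7 encode Frizzled receptors, each from a single exon, and both bind WNT5A among other ligands. FZD2 (ENSG00000180340, chromosome 17, 44557484 to 44561262) had normalized counts of 1636, 1508 and 1624 with the empty vector and 1746, 1954 and 1728 with overexpression. These groups did not overlap, and the log2 fold change of 0.19 (SE 0.11, 95% interval -0.03 to 0.40) did not pass the test (DESeq2 adjusted p = 0.452). FZD7 (ENSG00000155760, chromosome 2, 202033855 to 202038441) had 3432, 2989.6 and 2709.8 with the empty vector and 2882, 3049 and 2344 with overexpression. Here the groups overlapped and the sign was the opposite, with a log2 fold change of -0.14 (SE 0.14, 95% interval -0.42 to 0.14, DESeq2 adjusted p = 0.768). In both groups replicate 3 held the lowest FZD7 value. The log2 fold change of FZD7 was -0.22 without empty vector replicate 3 (DESeq2 adjusted p = 0.209), -0.05 without empty vector replicate 1, -0.22 without overexpression replicate 2 and -0.04 without overexpression replicate 3.

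CTNNB1 (ENSG00000168036), which encodes beta-catenin, lies on chromosome 3 from 41194741 to 41260096 and shares no annotated exon base and no 50-base word with another gene. Its normalized counts were 19272, 20025 and 20889 with the empty vector and 24435, 26049 and 26404 with overexpression. All 3 overexpression libraries lay above all 3 empty vector libraries, with a gap between the groups wider than the range within either. CTNNB1 rose from 20062 ± 809 to 25629 ± 1049.7 (SD, n = 3 each), which is 1.28-fold, with a log2 fold change of 0.35 (SE 0.09, 95% interval 0.17 to 0.53, DESeq2 adjusted p = 0.00432). Its size changed little between fits, from 0.32 to 0.39 over 14 alternatives, but the call did. It passed in 8 of them. EdgeR gave an adjusted p of 0.0585. Without empty vector replicate 1 or 2 the DESeq2 adjusted p was 0.232 or 0.123, and without overexpression replicate 1, 2 or 3 it was 0.105, 0.195 or 0.168. Without empty vector replicate 3 it was 6.7e-05. RNA amount was measured here, and beta-catenin is regulated chiefly as a protein, which these data do not measure.

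**Figure D2:**
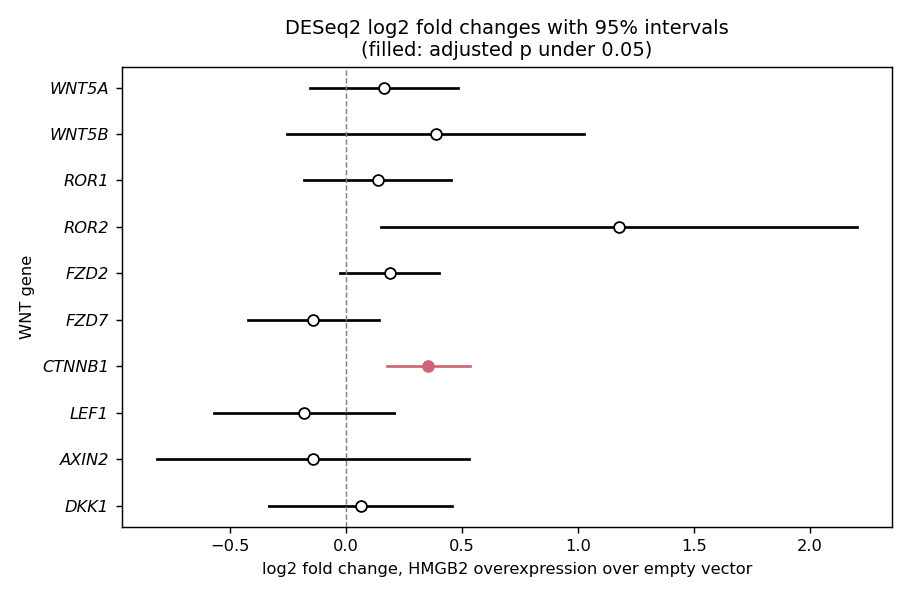
DESeq2 log2 fold changes of the 10 WNT genes (horizontal axis, overexpression over empty vector) with their 95% intervals as lines, filled where the adjusted p is under 0.05. CTNNB1 at 0.35 is the filled point, ROR2 at 1.18 has the widest interval, 0.15 to 2.2, and the intervals of the other 8 genes include 0.

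The remaining 3 members stand downstream of beta-catenin, and none passed the test. LEF1 (ENSG00000138795, chromosome 4, 108047545 to 108168956, minus strand) encodes a transcription factor that beta-catenin joins on DNA. It had normalized counts of 1110.2, 1263 and 812 with the empty vector and 1001, 1076 and 728 with overexpression, with overlap between the groups. The log2 fold change was -0.18 (SE 0.20, 95% interval -0.57 to 0.20, DESeq2 adjusted p = 0.788). With empty vector replicate 3 left out it was -0.34 (DESeq2 adjusted p = 0.0999). It was -0.04 without empty vector replicate 2 and -0.30 and -0.03 without overexpression replicates 2 and 3, none of them called. LEF1-AS1 lies over part of it on the opposite strand, and the counts used here kept 79.8% of the reads that a strand-by-strand count gives to LEF1, against 98.0% or more for the other 9 members.

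AXIN2 (ENSG00000168646, chromosome 17, 65528563 to 65561648, minus strand) encodes a scaffold of the destruction complex and is a widely used readout of canonical WNT signalling, since beta-catenin with TCF and LEF switches it on. Its normalized counts were low and uneven, 62.6, 96.6 and 52.6 with the empty vector and 49.1, 55.2 and 88.9 with overexpression. Its log2 fold change of -0.14 (SE 0.34, 95% interval -0.82 to 0.53, DESeq2 adjusted p = 0.925) was not called, and the sign turned when empty vector replicate 2 (0.15) or overexpression replicate 1 (0.02) was left out. AXIN2 was at -0.23 without empty vector replicate 1, -0.32 without empty vector replicate 3, -0.05 without overexpression replicate 2 and -0.45 without overexpression replicate 3. A further limit is that 25.3% of its exon bases are shared with ENSG00000266076 on the same strand, so reads there may be assigned to neither gene.

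DKK1 (ENSG00000107984, chromosome 10, 52314281 to 52318042) encodes a secreted inhibitor that binds LRP5 and LRP6 and is itself a known target of the pathway. It had normalized counts of 2375, 2369 and 3584 with the empty vector and 2516, 2549 and 3628 with overexpression. The difference between replicate 3 and the others exceeded that between the groups, and the log2 fold change was 0.06 (SE 0.20, 95% interval -0.33 to 0.46, DESeq2 adjusted p = 0.949). The value was -0.04 without empty vector replicate 1 or 2, 0.29 without empty vector replicate 3 and -0.13 without overexpression replicate 3. It was 0.15 without overexpression replicate 1 or 2. DKK1 is the member whose printed promoter holds matches to the word that TCF and LEF factors bind.

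Across the members, replicates numbered 3 departed from replicates 1 and 2 in different ways. For DKK1, LEF1 and FZD7 the replicates numbered 3 of both groups moved together. On the log2 scale, replicate 3 minus the mean of replicates 1 and 2 was 0.60 with the empty vector and 0.52 with overexpression for DKK1. It was -0.55 and -0.51 for LEF1, and -0.24 and -0.34 for FZD7. For the ligands it was the empty vector library alone that departed, by -0.54 for WNT5A and -0.54 for WNT5B, against -0.06 and 0.08 with overexpression. AXIN2 moved oppositely, by -0.60 and 0.77. CTNNB1 and FZD2 departed by no more than 0.10 in size in either group.

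**Figure D3:**
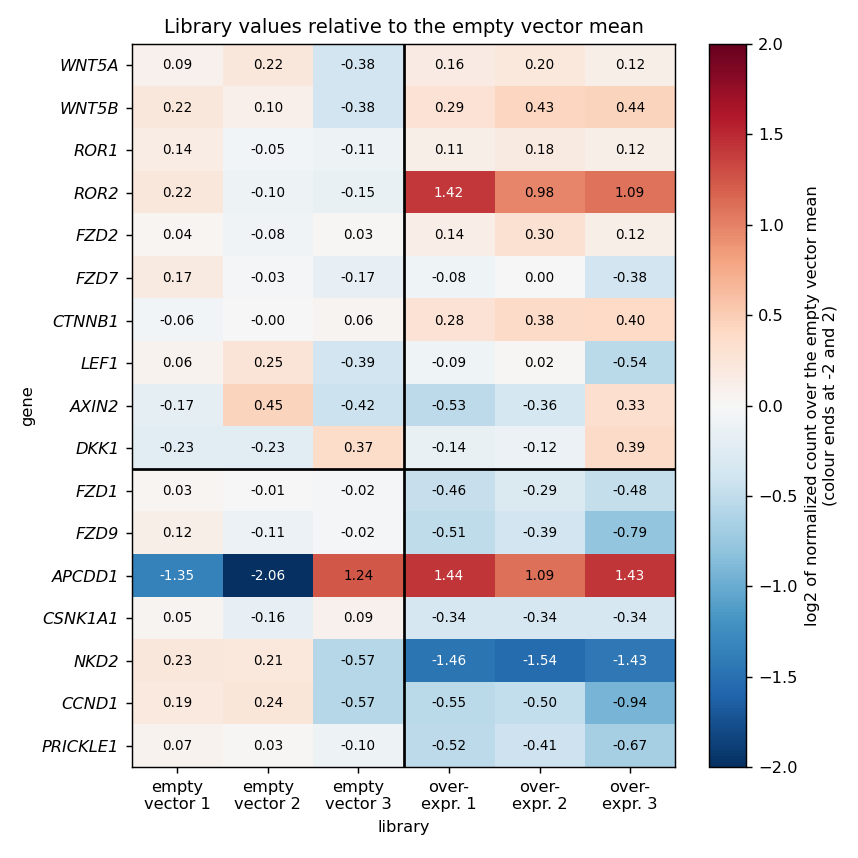
Log2 of each library's normalized count over the empty vector mean, for the 10 WNT genes above the line and for called or later named pathway genes below it; columns are libraries, red is higher, blue is lower, and colours end at -2 and 2. CTNNB1 is at 0.28, 0.38 and 0.40 in the overexpression columns against -0.06 to 0.06 with the empty vector, NKD2 is at -1.43 or lower in all 3 overexpression columns, and empty vector replicate 3 is the low column for WNT5A and WNT5B at -0.38 each.

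Levels were compared between genes as RPKM, which divides the reads of a gene by its exon length and by the library's reads in genes, as means over the 6 libraries. CTNNB1 was highest at 38.4 (range 32.7 to 44.2), then DKK1 at 25.2 (21.2 to 31.6), FZD7 at 12.5 (9.89 to 14.9) and FZD2 at 8.88 (7.94 to 10.3). Below these came LEF1 at 3.69 (2.63 to 4.69) and WNT5A at 3.61 (2.58 to 3.99), whose order was not the same in all libraries, LEF1 being the higher in 4 of 6. ROR1 followed at 0.664 (0.580 to 0.723). AXIN2 at 0.256 (0.187 to 0.370) and WNT5B at 0.196 (0.129 to 0.232) also overlapped, with AXIN2 the higher in 4 of 6. ROR2 was lowest at 0.0520 (0.0285 to 0.0858). FZD7 exceeded FZD2 within each library although their ranges overlapped, by 1.73, 1.63 and 1.37 times with the empty vector against 1.36, 1.29 and 1.12 times with overexpression. All other neighbours in the order had ranges that did not overlap.

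The other genes of the pathway were taken from a list of 119, grouped by role. Of these, 5 had no read in any library, namely WNT2, WNT8A, WNT9B, WIF1 and SOST, and 102 received an adjusted p. None was called higher and 6 (5.88%) were called lower, where 2.64% of all genes tested were lower. At an unadjusted DESeq2 p under 0.05, 7 were higher and 14 lower, where 6.98% of all genes tested were higher and 7.31% lower. The same shares of all genes stand beside the unadjusted counts by role and marker list below. Beside the DESeq2 calls by role and marker list stand 2.29% higher and 2.64% lower of all genes tested. Under edgeR the calls were 0 higher and 2 lower, FZD1 and NKD2. With that tool 1.28% of all genes tested were higher and 1.52% lower. The median log2 fold change of the 102 was 0.0051. Of the 97 whose normalized counts averaged at least 10, 22 (22.7%) had no overlap between groups, near the 22.8% of all such genes, and 9 of them were higher and 13 lower.

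Among receptors and co-receptors, 2 of 12 were lower and the rest were not called, with a median log2 fold change of 0.07. FZD1, a Frizzled receptor, fell from 4435, 4287 and 4271 normalized counts with the empty vector to 3144, 3551 and 3101 with overexpression. The groups did not overlap, and the change on the log2 scale was -0.41 (SE 0.10, DESeq2 adjusted p = 0.00288). FZD1 and FZD2 are close relatives that share 32 50-base words, and their RPKM ratio, FZD1 over FZD2, was 1.49, 1.56 and 1.44 with the empty vector and 0.987, 0.996 and 0.984 with overexpression. FZD9, a Frizzled gene of lower level, fell from 369.7, 314 and 335 to 239, 259 and 196 (log2 fold change -0.55, with SE 0.17 and DESeq2 adjusted p = 0.0285). The 2 highest in the role by mean normalized count, the co-receptor LRP5 and then FZD6, had log2 fold changes of -0.02 and 0.04 (DESeq2 adjusted p = 0.986 and 0.952).

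Of the ligands other than WNT5A and WNT5B, 11 of 17 were tested and 0 were called by DESeq2 or edgeR (1 higher and 2 lower at an unadjusted DESeq2 p under 0.05), with log2 fold changes from -0.50 to 1.01. The highest were WNT10B at 449, 353 and 472 against 316, 328 and 319.6 (log2 fold change -0.40, DESeq2 adjusted p = 0.149) and WNT3 (-0.22, DESeq2 adjusted p = 0.693). Both genes of ligand secretion were tested without a call: WLS, which carries WNT proteins to the surface, at 0.06, and PORCN, the enzyme that attaches their lipid, at -0.36 (DESeq2 adjusted p = 0.895 and 0.0994). In the R-spondin axis, which sets how long receptors stay on the surface, 0 of 5 tested were called by either tool (1 higher at an unadjusted DESeq2 p under 0.05). LGR4, a receptor for R-spondins, had 406, 493 and 561 against 598, 573 and 732 (log2 fold change 0.38, DESeq2 adjusted p = 0.227), and ZNRF3, a ligase that removes Frizzled, was at 0.10 (DESeq2 adjusted p = 0.901).

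Secreted and surface inhibitors gave 0 calls among 9 tested of 15 by either tool (2 higher at an unadjusted DESeq2 p under 0.05). SFRP1, which binds WNT proteins outside the cell, was among the highest genes of the list at 32832, 32361 and 30262 normalized counts with the empty vector and 35905, 37377 and 33269 with overexpression (log2 fold change 0.16, DESeq2 adjusted p = 0.486). DKK3 was at 0.01 (DESeq2 adjusted p = 0.989). APCDD1, an inhibitor at the membrane and a known target of the pathway, is named after its values were seen. It had 10.1, 6.20 and 61.2 normalized counts with the empty vector and 69.9, 55.2 and 69.8 with overexpression, so empty vector replicate 3 lay within the overexpression range. Its log2 fold change was 1.34 (DESeq2 adjusted p = 0.288) with that library and 3.01 (DESeq2 adjusted p = 1.94e-07) without it.

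Among cytoplasmic components 1 of 14 was called. CSNK1A1, the CK1 kinase that primes beta-catenin for destruction, fell from 13821, 11937 and 14216 normalized counts to 10559.6, 10529 and 10500.4, without overlap (log2 fold change -0.34, SE 0.10, DESeq2 adjusted p = 0.0298). Of its 50-base words, 46.9% also occur in other genes, nearly all in ENSG00000230551 on the same strand, which makes its reads uncertain. CSNK1D, the other gene named there by level, was at -0.11 (DESeq2 adjusted p = 0.759). The list of nuclear components held the TCF factors, their partners and CTNND1. It gave 0 calls among 15 by either tool (2 higher and 1 lower at an unadjusted DESeq2 p under 0.05). CTNND1, a further catenin gene, was at 0.07 and CTBP2, a co-repressor gene, at 0.02 (DESeq2 adjusted p = 0.843 and 0.965).

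Among the targets 2 of 10 were lower, where 2.64% of all genes tested were lower. NKD2, which binds Dishevelled and restrains WNT signalling, fell most, from 114, 112 and 65.5 normalized counts with the empty vector to 35.4, 33.5 and 36 with overexpression. The groups did not overlap, and means of 97.4 ± 27.6 and 35 ± 1.32 (SD, n = 3 each) differed 2.79-fold, a log2 fold change of -1.48 (SE 0.32, 95% interval -2.10 to -0.86, DESeq2 adjusted p = 0.000197). NKD2 was called in all 14 alternatives, with adjusted p from 7.16e-06 to 0.033. No 50-base word of NKD2 occurs in another gene, and its printed promoter stretch held no match to the word searched. CCND1, which encodes cyclin D1, had 28098, 29028 and 16587 normalized counts with the empty vector and 16839.9, 17419.9 and 12851 with overexpression (log2 fold change -0.65, SE 0.21, DESeq2 adjusted p = 0.0402). Its groups overlapped, as empty vector replicate 3 lay among the overexpression libraries, and without that library the log2 fold change was -0.86 (DESeq2 adjusted p = 2.69e-11). LTO1 overlaps CCND1 on the opposite strand, and the counts used kept 80.5% of the strand-by-strand reads of CCND1. In the sum of the stranded columns the log2 fold change of CCND1 was -0.64 (DESeq2 adjusted p = 0.0335). CD44, a surface glycoprotein gene and the highest target by normalized count, was at 0.12 (DESeq2 adjusted p = 0.651).

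Of the genes acting without beta-catenin, 24 of 25 were tested and 1 was lower. PRICKLE1, a planar polarity gene, had 234, 228 and 208 normalized counts with the empty vector and 155, 168 and 141 with overexpression (log2 fold change -0.53, SE 0.17, DESeq2 adjusted p = 0.0496). Genes on the opposite strand overlap it and the counts used kept 38.7% of its strand-by-strand reads, and in the sum of the stranded columns its log2 fold change was -0.32 and was not called. RHOA and RAC1, small GTPases through which WNT5A acts on the cytoskeleton, were at 0.06 and -0.18 (DESeq2 adjusted p = 0.908 and 0.357).

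**Figure D4:**
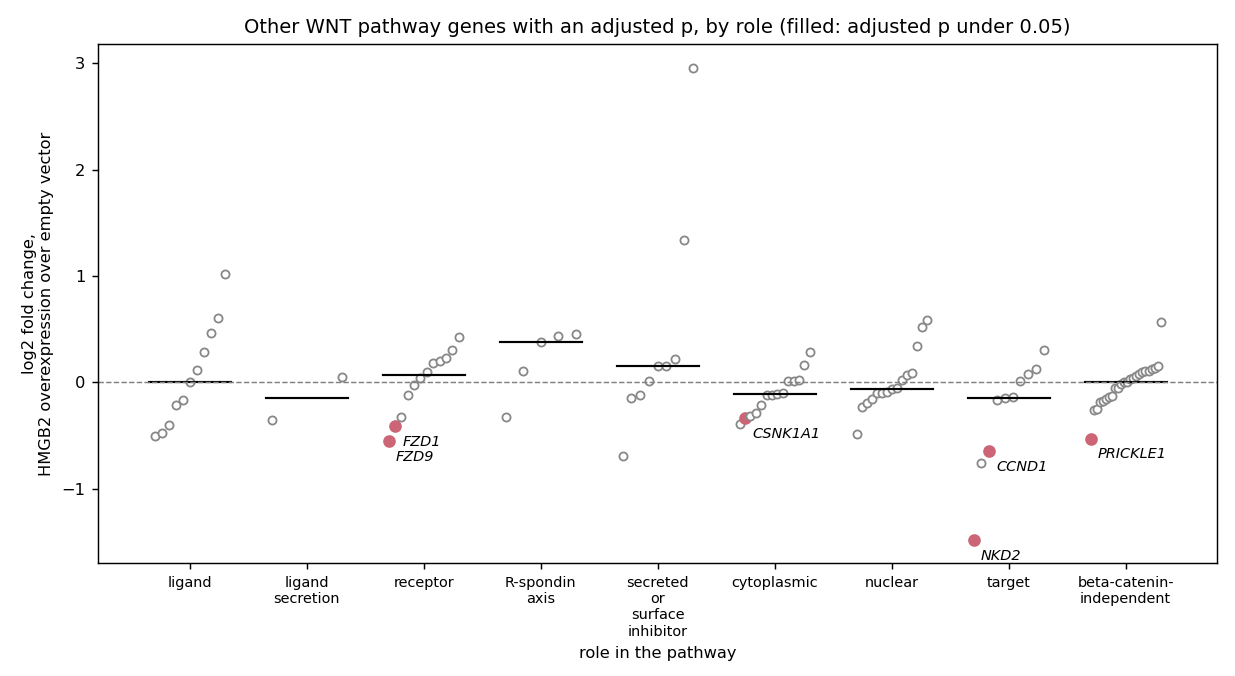
DESeq2 log2 fold changes (vertical axis, overexpression over empty vector) of the 102 other WNT pathway genes with an adjusted p, by role, with the median of each role as a line and called genes filled and named. The 6 filled points lie below 0, from NKD2 at -1.48 to CSNK1A1 at -0.34, and role medians run from -0.15 for ligand secretion to 0.38 for the R-spondin axis. The highest open circle is DKK4, named after its values were seen, with 0, 0 and 4 reads with the empty vector and 9, 16 and 7 with overexpression.

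The count of pathway genes called depended on the libraries in the fit. Without empty vector replicate 3 there were 3 higher (LGR4, APCDD1 and TNFRSF19) and 17 lower genes, among them AXIN1 at -0.56, GSK3B at -0.45, DVL1 at -0.41 and TLE3 at -0.67, and 8.31% of all genes tested were then higher and 9.46% lower. Leaving out empty vector replicate 1, overexpression replicate 1 or overexpression replicate 3 left NKD2 as the call. Without empty vector replicate 2 the calls were NKD2 and CSNK1A1, and without overexpression replicate 2 they were NKD2 and FZD1. Over the 14 alternatives FZD1 was called in 10, CSNK1A1 in 8, FZD9 in 7, CCND1 in 7 and PRICKLE1 in 4. The part of empty vector replicate 3 in these counts beyond the values given was not tested.

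**Figure D5:**
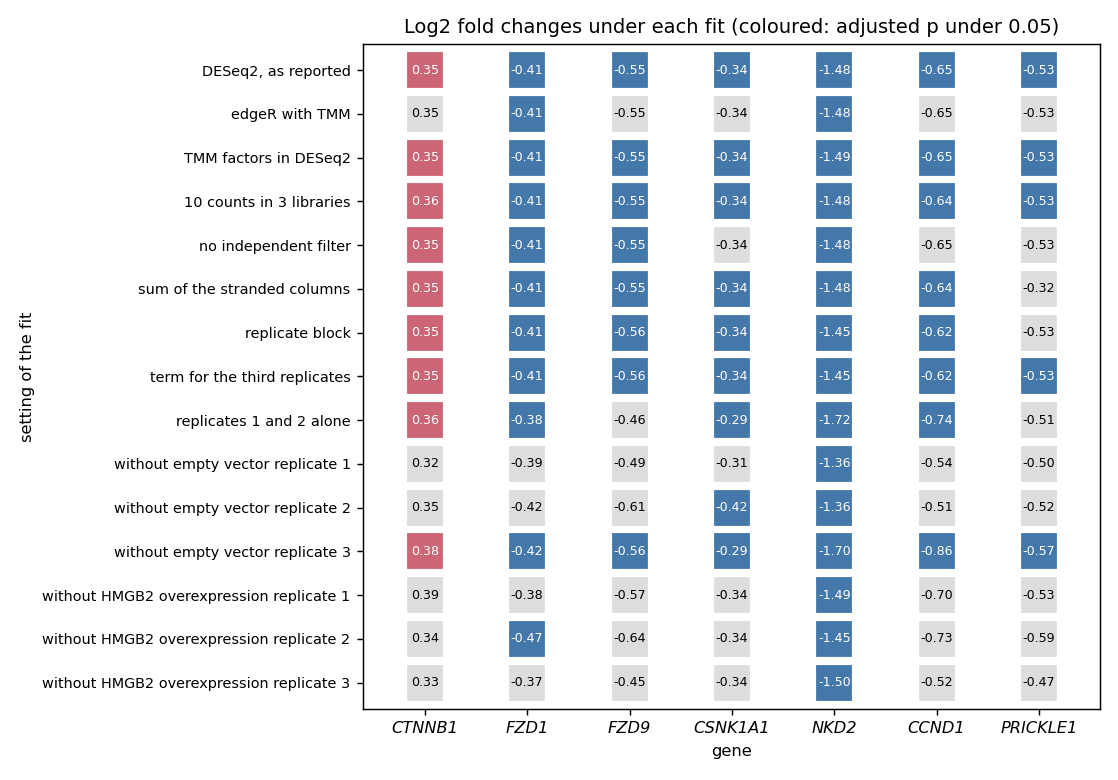
Log2 fold changes of the 7 called WNT genes (columns) under the reported fit and 14 alternatives (rows), coloured where the adjusted p is under 0.05 and grey where it is not. NKD2 is coloured in every row, CTNNB1 in the reported fit and 8 alternatives, and no gene changes sign.

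The genes most like WNT5A in pattern were sought among 13332 genes whose normalized counts averaged at least 50, by Pearson's r of log2(normalized count + 1) over the 6 libraries, which share the spread between replicates and the low value of empty vector replicate 3. They were KMT2C (0.997), VCPIP1 (0.997), ENSG00000259977 (0.990), UTP20 (0.990) and FAM98B (0.990). KMT2C, a histone methyltransferase gene, had normalized counts of 1575, 1726 and 1138 with the empty vector and 1618, 1704 and 1622 with overexpression. All 5 were lowest in empty vector replicate 3, and none was called, with DESeq2 adjusted p from 0.768 to 0.855. With Spearman's rho 31 genes were tied at 1, FAM98B among them.

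Markers of the labelled cell type and of others were read beside these values. MITF (1381 to 1719 normalized counts) and S100B (3346 to 3841), genes of the melanocyte lineage, were present in all libraries. The pigment genes TYR and DCT were at 0 to 5.63, and MLANA and TYRP1 at 3.38 to 21.3. SOX10 was listed at 0 and PMEL at 49.6 to 67, in a column that kept 0% and 3.37% of their strand-by-strand reads. Of 5 marker lists, 4 gave 0 calls by DESeq2 and edgeR (2 higher and 1 lower fibroblast gene at an unadjusted DESeq2 p under 0.05). PTPRC (leukocytes) and KRT1 (keratinocytes) were at 0 in all libraries. Other markers of their lists were not, with KRT10 at 3816 to 4410, KRT14 at 421 to 694 and LYZ (blood and immune) at 488 to 701 normalized counts. In the endothelial list 1 of 4 genes, KDR, was lower (log2 fold change -1.11, DESeq2 adjusted p = 0.00115), and the summed level of that list was 197 to 214 with the empty vector and 148 to 164 with overexpression. The summed fibroblast list was 3788 to 5791 with the empty vector and 5290.2 to 6966 with overexpression, overlapping, and the keratinocyte list 4596 to 4961 and 4492 to 5083. The melanocyte lineage list was 4877 to 5096 with the empty vector and 5302 to 5624 with overexpression. With few or no reads kept for SOX10 and PMEL, this sum is mainly MITF and S100B. MITF and S100B were not called (DESeq2 adjusted p = 0.533 and 0.700). The blood and immune list was 496 to 523 and 527 to 701, nearly all of it LYZ, which was not called (DESeq2 adjusted p = 0.542). For LYZ and CD68 the column kept 58.1% and 0.299% of strand-by-strand reads. The groups overlapped in neither the melanocyte lineage nor the blood and immune list. Among single genes whose normalized counts averaged at least 10, 22.8% had no overlap. KRT5 had 5.05 and 11.5 normalized counts in empty vector replicates 1 and 2 and 279 in replicate 3, against 199.9 to 289 with overexpression. Empty vector replicate 3 thus lay within the overexpression range for KRT5 as it did for APCDD1. Multimapped reads, which enter no gene, were 2.58% to 3.96% of reads with the empty vector. With overexpression they were 4.89%, 3.32% and 10.6% in replicates 1 to 3, so the high value is that of replicate 3 alone. The part of these differences in the WNT values was not tested, and in bulk RNA fewer cells expressing a gene and less of its RNA per cell cannot be told apart.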

How the data were processed

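RNA was measured in 6 libraries of A375 cells (poly(A) selected, unstranded). The authors ran FastQC, Trimmomatic and alignment to hg38, and deposited raw read counts per gene in the layout of STAR, without normalization. Per the submitters' processing notes bcl2fastq 2.20 and STAR were used; the STAR version and annotation release are not given in the sources used here. Reads on overlapping opposite-strand genes are set aside in the first count column, which was used here.

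From these counts, symbols came from GENCODE 44 (57532 of 58302 IDs matched). DESeq2 1.42.0 (R 4.3.3, default Wald test on the group, as the study's methods state) gave size factors, unshrunken log2 fold changes, SEs and adjusted p over all genes. Intervals are 95% Wald intervals on the log2 scale. Alternatives were edgeR 4.0.16 with TMM, TMM factors, a filter of 10 counts in 3 libraries, no independent filter, the summed stranded columns, a replicate block, a term for the replicates numbered 3, replicates 1 and 2 alone, and leaving out each library. The alternative with no independent filter also left out DESeq2's outlier cutoff (Cook's distance). The fit was also run on simulated counts with the same dispersion for every gene and no outlying library. That run does not test how the fit handles empty vector replicate 3.

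The members, lists and alternatives were chosen with earlier results of these data known. Named were HMGB2, the members, called pathway genes, the 2 highest in mean count per role, and the 5 genes most like WNT5A in Pearson's r. Exceptions are marked.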

Additional observations from a re-analysis of the deposited data

How the results depend on the processing

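HMGB2 was called under all 14 alternatives, and the 9 members that did not pass were called in 0 of the 124 alternative fits that gave an adjusted p (lowest 0.0817). The counts of calls were less stable, and the cause was not tested. EdgeR gave 215 higher and 255 lower genes (1.28% and 1.52% of those tested), 0 WNT members and 2 lower pathway genes of 97 tested. Without the independent filter and the outlier cutoff, 3 of 114 pathway genes tested were lower, where 1.28% of all genes tested were. With a term for the replicates numbered 3 there were 1374 higher and 1359 lower genes (8.71% and 8.61% of those tested). Of 97 pathway genes tested in that fit, 5 were higher and 14 lower. Replicates 1 and 2 alone gave 1203 and 1418 genes (8.01% and 9.44% of those tested), and 5 and 12 of 95 pathway genes. Leaving out 1 library at a time gave 155 to 1334 higher and 208 to 1520 lower genes. The shares of all genes tested were then 0.839% to 8.31% higher and 1.13% to 9.46% lower. These fits called 0 to 1 WNT members, and 0 to 3 higher and 1 to 17 lower pathway genes. In the same fits the log2 fold change of AXIN2 ran from -0.45 to 0.15 and that of DKK1 from -0.13 to 0.29.

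The replicate block gave 886 higher and 940 lower genes (6.09% and 6.46% of those tested) and 1 WNT member. Of 90 pathway genes tested in that fit, 4 were higher and 11 lower. Deviations from group means of same-numbered libraries correlated by 0.0906, 0.142 and 0.349 over 16692 genes. A replicate 3 correlated with replicates 1 and 2 of the other group by -0.272 to -0.137, so replicates numbered 3 shared a pattern across the groups. Empty vector replicate 1 correlated best with overexpression replicate 2 (0.212), so replicates 1 and 2 were not told apart as pairs and the reported fit has no replicate block.

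Low counts limit ROR2 and WNT5B most, at 8 to 28 and 26 to 50 reads per library.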
